A study of Mus musculus with 94 samples.

Results

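The late state of the Mgmt-/- mouse brain after a single dose of the genotoxin MAM (methylazoxymethanol), at 168 hr, was set against the early state at 6 hr. The members were chosen by label, as the Mgmt-/- brain arrays with MAM as agent at these times, which gave 5 arrays at 168 hr and 6 arrays at 6 hr, or 11 of the 94 arrays of the series. A further array with these labels, MGMT.MAM.168.343, was left out because its profile was that of liver. Sample titles join genotype, agent, hours and animal number. The same change of time in Mgmt-/- brains that received vehicle, 6 arrays at each time, is given for reference. All 4 groups lacked Mgmt and shared the C57BL6 strain, male sex and an age of 11 weeks. By these recorded traits they differed in agent and time only, while RNA quality, given below, also moved with the comparison. Mice received 1 intraperitoneal injection of MAM or of the vehicle, dilute acetic acid in saline, and RNA came from the right side of the brain. Each array held total RNA of 1 animal, hybridised in a single colour to a whole-genome mouse array of 45101 probe sets, and values are log2 signals. Wild-type (wt) brains after MAM, 6 arrays at 6 hr and 5 at 168 hr, and after vehicle, 6 at each time, are quoted only where a member is compared across genotypes.

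MAM is the active metabolite of cycasin, a toxin of cycad plants, and it methylates DNA. The DNA repair protein MGMT removes the methyl group from O6-methylguanine by transferring it to itself, and without it the lesion persists and can mispair when DNA is copied. Most neurons of the adult brain no longer divide, so that a lesion of this kind meets repair, transcription and damage signalling more often than replication.

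Animal numbers fell into 2 sets, the 300s and the 900s, whose meaning the labels do not give (the study worked in more than 1 laboratory, but the labels do not tie the sets to them), and the set was kept as a blocking term in every fit. The probe set for Mgmt did not separate the genotypes on these arrays, with 5.09 to 6.45 (median 5.70) over 47 Mgmt-/- arrays and 5.49 to 6.21 (median 5.73) over 46 wt arrays, so it gave no check of the labels. MGMT.MAM.168.343 had a mean of 13.4 over 15 liver genes, where the 23 arrays in the fit had 4.94 to 6.91. The 3′/5′ index, a measure of RNA quality that is the mean log2 difference between the 3′ and 5′ control probe sets of Gapdh and beta-actin and is lower where both ends are more alike, moved with the comparison. It was 0.57 to 0.75 at 6 hr after MAM and 0.471 to 0.553 at 168 hr, a difference of -0.113 with no overlap (exact permutation test within number sets, two-sided p = 0.01, adjusted p = 0.2 over 20 such tests). After vehicle the index went the other way, from 0.417-0.46 to 0.393-0.792 (exact p = 0.025, adjusted p = 0.25). The strongest pattern shared by arrays of the same group and number set took 42.1% of the variance within groups and set the vehicle arrays MGMT.VEH.6.903 and MGMT.VEH.6.905 apart (scores of -0.27 and -0.261, where MGMT.MAM.6.325 and MGMT.MAM.168.971 had -0.205 and -0.217). Between the times after MAM the mean of that score differed by -0.003 (exact p = 0.97). Neuronal markers identified every array in the fit as brain, with a mean of 11.05 to 11.32 over 16 genes. The plot of array measures gives the index, the score and the liver mean of the 23 arrays in the fit by group. p-values measured the spread between these animals, and in whole tissue fewer cells of a type cannot be told apart from less RNA per cell.

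**Figure D1:**
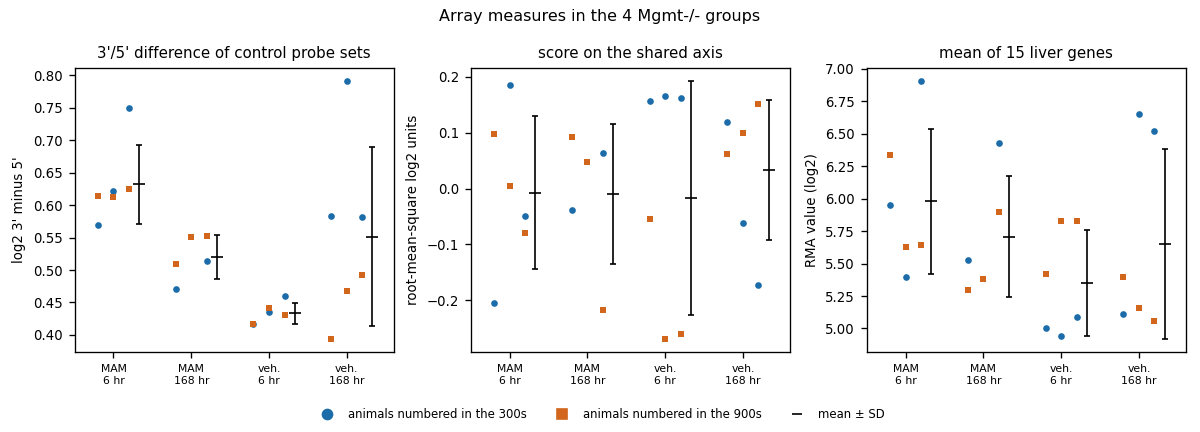
Array measures by group: the 3′/5′ index (log2 difference), the shared-axis score (root-mean-square log2 units) and the mean log2 signal of 15 liver genes, one point per array in the fit, marked by number set, with the mean and SD of each group. The 6 hr arrays after MAM lie above all 168 hr arrays after MAM for the index (0.57 to 0.75 against 0.471 to 0.553). MGMT.MAM.168.343, left out of the fit, is not shown.

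Late after MAM, 9 genes were higher than at 6 hr and 4 were lower. Higher were Fbln5, Spink8, Slc5a5, Amn, Cyp2d22, Rab3b, Sin3b, Pecr and Eif2b3, by 1.32 to 1.78 fold, and lower were Pglyrp1, Fmo2, Hbb-b2 and Tns3, at 0.554 to 0.76 of the early level. They were represented by 14 probe sets, or 0.031% of the 45101 tested, and as 13 genes they were 0.0715% of the 18194 named genes (limma, Benjamini-Hochberg adjusted p under 0.05 and fold above 1.3). At an unadjusted p under 0.05 the number of probe sets was 2672, or 5.92%. The 13 genes do not belong to 1 pathway: they include an extracellular matrix protein, a transporter, metabolic enzymes, a repressor subunit and a globin. None was called in the vehicle brains, where 0 genes were called in all by limma (3190 probe sets at an unadjusted p under 0.05, 3 genes when the vehicle arrays were fitted alone). For none of the 13 was the change after MAM shown to differ from that after vehicle, since the test of that difference called 0 genes (smallest adjusted p = 0.154, 3177 probe sets at an unadjusted p under 0.05). With the 3′/5′ index as a covariate 4 genes were called, of which 1 was among the 13, and 0 were called where MGMT.MAM.168.343 was kept. The part of RNA quality in these changes was not tested beyond this. The calls lay near the threshold, with a smallest limma adjusted p of 0.0425, and the count was not stable. Without 1 of the 23 arrays, of the MAM or the vehicle groups, it ran from 0 to 20, and it was 0 in 14 of the 23 fits. Within the number sets alone, 4 genes were called in the first set and 0 in the other.

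Fbln5, which encodes an extracellular matrix protein that organises elastic fibres, had the largest rise of the 9 called genes. It read 7.56, 7.59, 7.71, 7.07 and 7.33 in the 5 late MAM brains, and 6.44 to 6.84 (median 6.60) in the 6 early ones. Every late value lay above every early one, by 0.83 ± 0.15 (SE; 1.78 fold, limma adjusted p = 0.0472). The rise was 0.95 in the first number set and 0.75 in the other. In the vehicle brains Fbln5 went from 6.36-7.54 to 6.65-6.89, a difference of -0.23, and in the wt MAM brains the difference was -0.10. A second probe set for Fbln5 differed by 0.21, so that the probe sets were unequal in size.

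Spink8, a Kazal-type inhibitor of serine peptidases, read 6.02, 6.08, 6.18, 5.94 and 5.94 late after MAM against 4.93 to 5.79 (median 5.41) early. The groups did not overlap and the rise was 0.64 ± 0.12 (1.56 fold, limma adjusted p = 0.0472), equal in both number sets at 0.64. At 24 and 48 hr after MAM Spink8 stood at 5.45 and 5.73 on average, between the early and the late mean. Vehicle brains read 5.53 to 6.02 at 6 hr and 5.41 to 5.81 at 168 hr, a difference of -0.16.

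Slc5a5, the sodium iodide symporter, read 7.01, 6.90, 6.76, 6.99 and 6.66 in the late MAM brains and 6.01 to 6.63 (median 6.34) in the early ones. All late values were higher, by 0.53 ± 0.10 (1.45 fold), while a second Slc5a5 probe set differed by 0.02 ± 0.19. Vehicle brains read 6.69 to 6.87 at 6 hr and 6.59 to 6.98 at 168 hr, so that the early MAM brains were the low group of the 4. Amn, a membrane protein that partners cubilin in endocytic uptake, likewise had its lowest mean early and its highest mean late after MAM. It read 7.01, 7.18, 6.84, 7.06 and 7.05 late after MAM and 6.32 to 6.65 (median 6.57) early, a rise of 0.50 ± 0.08 with no overlap (1.41 fold). Vehicle brains held 6.77 to 7.09 for Amn at 6 hr and 6.74 to 7.08 at 168 hr.

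Cyp2d22, a cytochrome P450 of the Cyp2d family, was high in the late MAM brains only among the 4 group means. Its late values were 8.21, 8.10, 8.25, 7.97 and 7.93, its early values 7.45 to 7.72 (median 7.61), and the rise was 0.48 ± 0.09 (1.39 fold) with no overlap, and that of a second Cyp2d22 probe set 0.24 ± 0.08 (limma adjusted p = 0.479). Vehicle brains read 7.19 to 7.69 at 6 hr and 7.35 to 7.54 at 168 hr. Pecr, a peroxisomal enoyl-CoA reductase, read 6.54, 6.51, 6.47, 6.56 and 6.52 late after MAM against 6.02 to 6.27 (median 6.11) early. This made a rise of 0.40 ± 0.07 without overlap, while another Pecr probe set differed by 0.00.

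Sin3b, the scaffold of a histone deacetylase corepressor complex, read 8.45, 8.46, 8.54, 8.55 and 8.44 late and 7.96 to 8.16 (median 8.07) early after MAM. The groups did not overlap and differed by 0.41 ± 0.07 (1.33 fold), with 0.34 in the first number set and 0.49 in the other. Vehicle brains read 8.51 to 8.97 at 6 hr and 8.32 to 8.61 at 168 hr, a difference of -0.16, and here too the early MAM brains were the low group. The other 4 Sin3b probe sets differed by 0.22, 0.21, -0.12 and -0.12.

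Rab3b, a small GTPase of secretory and synaptic vesicles, was the gene of the 13 whose groups overlapped. Its late values were 9.43, 9.57, 8.96, 9.20 and 9.20 and its early ones 8.54 to 9.12 (median 8.92), with MGMT.MAM.168.967 inside the early range. The rise was 0.42 ± 0.08 (1.34 fold). Eif2b3, a subunit of the guanine nucleotide exchange factor that recharges the translation initiation factor eIF2, read 8.06, 8.27, 8.09, 8.33 and 8.01 late and 7.70 to 7.94 (median 7.71) early. All late values were higher, by 0.40 ± 0.07 (1.32 fold).

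Pglyrp1, a secreted innate immune protein that binds bacterial peptidoglycan, had the largest fall of the 4 called genes. It read 5.82, 5.87, 6.29, 6.23 and 6.26 late and 6.62 to 7.06 (median 7.03) early after MAM. Early values were all above the late ones, and the difference was -0.85 ± 0.13 (0.554 of the early level, limma adjusted p = 0.0425), at -1.19 in the first number set and -0.62 in the other. The mean was already 6.29 at 24 hr and 5.98 at 48 hr. Vehicle brains read 5.65 to 6.34 at 6 hr and 5.60 to 6.05 at 168 hr, so that the early MAM brains were the high group. Pglyrp1 also fell in the wt MAM brains, by 0.70 (limma adjusted p = 0.0452).

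Fmo2, a flavin-containing monooxygenase, read 4.14, 4.33, 4.28, 4.02 and 4.03 late and 4.48 to 5.19 (median 4.80) early after MAM. The groups did not overlap and the difference was -0.63 ± 0.11 (0.645 of the early level). A second Fmo2 probe set fell as well, by 0.69 ± 0.13 (limma adjusted p = 0.0472), but a brighter one with a mean of 7.58 differed by -0.04 ± 0.43. Its means at 24 and 48 hr were 4.02 and 4.02, and wt MAM brains fell by 0.46 (limma adjusted p = 0.0248). In vehicle brains the first Fmo2 probe set was also lower late, at 3.71 to 4.18 against 4.12 to 4.40 at 6 hr. Over the 15 liver genes, all 15 differences were below 0 after MAM (median -0.19), with group ranges of the mean that overlapped (5.40 to 6.91 early, 5.30 to 6.43 late). The liver median was -0.37 without MGMT.MAM.168.347 and -0.03 without MGMT.MAM.6.329, and it turned to 0.21, with 13 of 15 above 0, when the 3′/5′ index was a covariate. The part of liver RNA in the Fmo2 values was not tested beyond this.

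Tns3, a tensin of focal adhesions, read 9.64, 9.69, 9.99, 9.73 and 9.83 late and 10.03 to 10.35 (median 10.18) early after MAM. The fall was 0.40 ± 0.07 on the log2 scale without overlap, and the mean was already 9.82 at 24 hr. A second, dimmer Tns3 probe set differed by -0.07 ± 0.09. The first Tns3 probe set was also lower late in vehicle brains, at 9.49 to 9.73 against 9.70 to 9.86 at 6 hr. Hbb-b2, an adult beta globin, read 4.04, 3.58, 4.01, 3.84 and 4.20 late and 4.30 to 4.47 (median 4.39) early, a difference of -0.47 ± 0.09 without overlap. These Hbb-b2 levels are low, the probe set can share signal with the near-identical globin paralogs, and another probe set for Hbb-b2 differed by -0.29. The mean of 5 other erythroid genes was 4.24 to 4.67 early and 4.17 to 4.74 late (exact p = 0.355). Of these 5 only Alas2, an enzyme of heme synthesis in red cell precursors, was lower at an unadjusted p under 0.05. Alas2 read 5.15, 4.94, 5.68, 4.71 and 4.87 late and 5.60 to 6.16 (median 5.85) early, a difference of -0.77 ± 0.21 (limma adjusted p = 0.328) with 1 late value inside the early range, against 0.21 after vehicle. The part of blood cell RNA in the Hbb-b2 change was not tested.

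**Figure D2:**
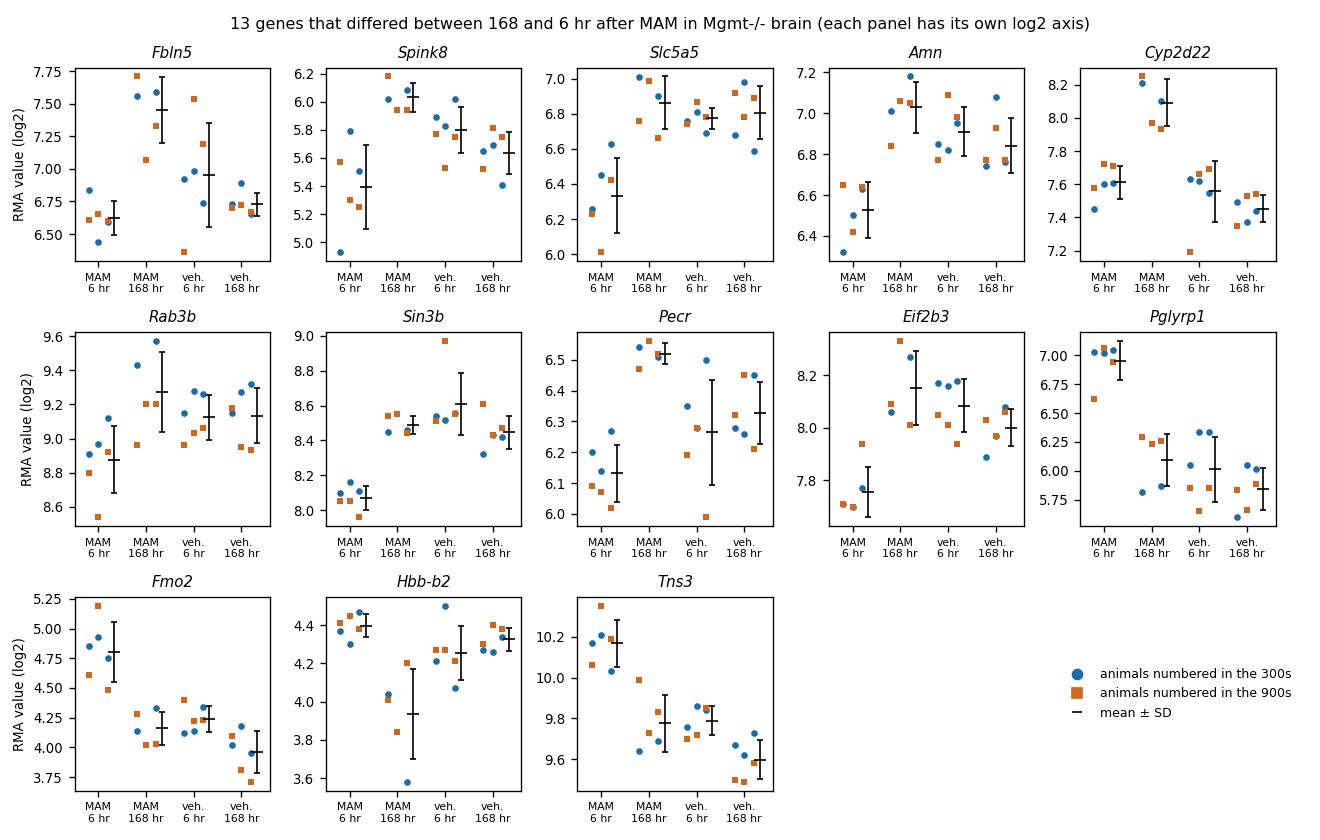
The 13 genes that differed between 6 and 168 hr after MAM, one panel each with its own log2 axis, with points for the arrays of the Mgmt-/- MAM and vehicle groups at 6 and 168 hr by number set, and the mean and SD of each group. The MAM groups, on which the genes were called, do not overlap in 12 of the 13 panels, and the vehicle groups overlap in all of them.

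The MAM groups of 12 of the 13 genes did not overlap, where 0.927% of all probe sets had groups that did not. The 13 were called on these same arrays, so this separation largely follows from the choice and is no further evidence. In the vehicle brains 7 of the 13 differed in the opposite direction. That is near the share over all genes, where the sign was the same for 50%. The vehicle groups of all 13 overlapped, but the share of all probe sets that did so was not counted. For 9 of the 13 the MAM and vehicle means were farther apart at 6 hr than at 168 hr, though Spink8 was near a tie (-0.41 and 0.39). The genes were chosen by their change after MAM, so a distance from vehicle at 1 of the times partly follows from the choice. The share over all genes was not counted. Pglyrp1 lay 0.95 above vehicle early and 0.25 above it late, Sin3b 0.54 below and 0.04 above, and Slc5a5 0.45 below and 0.05 above. The remaining 4 were farther from vehicle late, with Fbln5 at -0.34 early and 0.72 late, Cyp2d22 at 0.05 and 0.64, Pecr at -0.14 and 0.19, and Hbb-b2 at 0.14 and -0.40. The vehicle arrays in these differences include MGMT.VEH.6.903 and MGMT.VEH.6.905. Cops5, the catalytic subunit of the COP9 signalosome, passed the adjusted p (0.0472) with a difference of 0.35 but missed the fold threshold.

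The genes with the smallest p for a change after vehicle were Gtf3c1, Pdgfra, Sgk1, Hdlbp and Ifitm1, and none passed the adjusted threshold. Gtf3c1, a subunit of a general factor of RNA polymerase III, read 5.49 to 5.90 (median 5.68) at 6 hr and 4.94 to 5.22 (median 5.14) at 168 hr after vehicle, a difference of -0.58 ± 0.09 (limma adjusted p = 0.119) with no overlap. Pdgfra, the receptor that marks oligodendrocyte precursors, differed by -0.82 (adjusted p = 0.366). The smallest p for the difference between the MAM and vehicle changes were those of Sin3b (0.57), Fbln5 (1.06), Fads1, Tpm3 and Ica1. Fads1, a fatty acid desaturase, differed by -0.32 after MAM and 0.16 after vehicle. Tpm3, a tropomyosin, differed by 0.59 after MAM (adjusted p = 0.109), and Ica1, a protein of secretory vesicles, by 0.46 (adjusted p = 0.0612).

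Genes that respond to glucocorticoid hormone had a small median difference between 168 and 6 hr after MAM and a larger negative one after vehicle. The hormone acts through a nuclear receptor that binds DNA, and in brain it raises Sgk1, Fkbp5, Tsc22d3 and Ddit4 within hours of stress. Of 28 listed genes 26 were measured. Their median difference was -0.06 after MAM, with 4 lower and 0 higher at an unadjusted p under 0.05 and 0 called, beside a median of -0.003 and shares of 2.57% lower and 4.42% higher over all genes. After vehicle the median was -0.33, with 13 lower and 0 higher, beside a median of 0.023 and shares of 1.89% lower and 5.71% higher. The median difference between the MAM and vehicle changes was 0.21, and its test had 7 of the 26 above 0 and 0 below at an unadjusted p under 0.05 (shares of 3.11% and 4.64% over all genes) and none called. The list was chosen with earlier results of these data known, so its direction is a description. Without MGMT.VEH.6.903 and MGMT.VEH.6.905 the vehicle median was -0.12 with 8 lower, the MAM median was -0.05, and the median difference between MAM and vehicle fell to 0.04. In the first number set alone the vehicle median was -0.177, and the median difference was -0.028 with 3 higher and 3 lower. In the other set the vehicle median was -0.544, and the median difference was 0.517 with 11 higher and 0 lower.

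Sgk1, a kinase induced by glucocorticoids, read 10.88, 11.35, 11.15, 10.22 and 10.93 late and 10.50 to 11.06 (median 10.76) early after MAM, and the groups overlapped with a difference of 0.13 ± 0.22. Its means at 24 and 48 hr after MAM were lower, at 9.75 and 10.03. Vehicle brains read 9.66 to 11.43 (median 10.38) at 6 hr and 9.14 to 9.51 (median 9.32) at 168 hr, so that every late MAM brain lay above every late vehicle brain. In wt MAM brains Sgk1 fell by 1.31 (adjusted p = 0.00512). Sult1a1, a sulfotransferase, read 8.46, 8.75, 8.82, 8.02 and 8.77 late and 7.59 to 8.45 (median 8.22) early after MAM, and 6.68 to 7.10 late after vehicle.

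Further members are given after MAM and then after vehicle. Fkbp5, a chaperone of the glucocorticoid receptor, differed by -0.11 after MAM and -0.55 after vehicle, and Arrdc2, an arrestin-related protein, by 0.01 and -0.77. Tsc22d3, a leucine zipper protein induced by the hormone, differed by -0.40 and -0.50. Lcn2, a secreted iron-carrier protein, differed by -1.39 ± 0.41 after MAM, reading 4.04, 4.39, 4.64, 3.95 and 4.07 late against 4.09 to 7.80 (median 5.57) early, where MGMT.MAM.6.951 held the highest value.

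**Figure D3:**
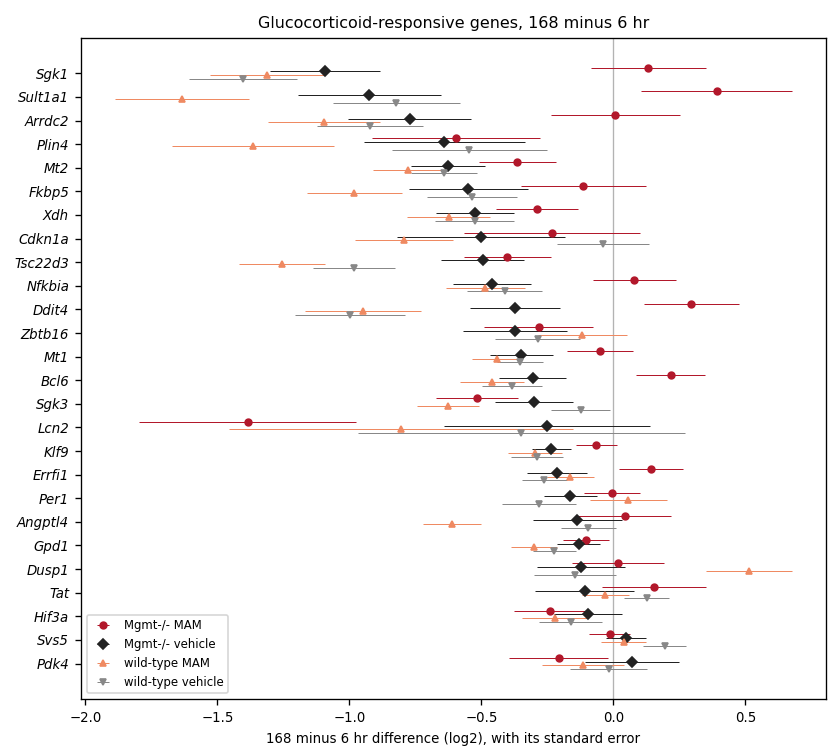
Difference between 168 and 6 hr (log2, with SE) for each measured glucocorticoid-responsive gene in Mgmt-/- MAM, Mgmt-/- vehicle, wt MAM and wt vehicle brains. The medians were -0.06, -0.33, -0.55 and -0.32, and Sgk1 sits at 0.13 after MAM in Mgmt-/- brains against -1.09, -1.31 and -1.40 in the other groups.

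Genes of cholesterol synthesis were lower on balance at 168 hr after MAM. The brain makes its own cholesterol from acetyl-CoA, since plasma lipoproteins hardly pass the blood-brain barrier, and the enzymes are switched on together by the transcription factor SREBF2. Of 24 listed genes 20 were measured, and all 20 had a negative difference after MAM, with a median of -0.20 beside -0.003 over all genes. At an unadjusted p under 0.05, 7 were lower and 0 higher, and none was called (share over all genes 2.57% lower). After vehicle the median was 0.16 with 3 higher (share over all genes 5.71%), and the test of the difference had 8 lower (share over all genes 4.64%), with none called. The vehicle result rested on MGMT.VEH.6.903 and MGMT.VEH.6.905, and without them the vehicle median was -0.10 with 3 lower, and the median difference between MAM and vehicle was -0.07 with 6 lower, while the MAM median was -0.21 with 10 lower, 5 of them called. The MAM median was -0.20 and -0.21 in the number sets, and ranged from -0.24 to -0.18 as each array was left out. In the first number set the vehicle median was -0.20 as well, with 7 lower, and the median difference between MAM and vehicle was -0.014. In the other set the vehicle median was 0.549 and the median difference -0.735. Where the liver-like MGMT.MAM.168.343 was kept the MAM median was 0.17.

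The promoters of these enzymes are shown because their genes are among the 7 that were lower at an unadjusted p under 0.05 and their letters for 2 known factors can be read in place. They are the 250 bases before the transcription start from RefSeq annotation of GRCm38.p6, at chr13:119690101-119690350 (+) for Hmgcs1, chr8:64733579-64733828 (-) for Msmo1 and chr8:122443423-122443672 (-) for Mvd, in the direction of the gene. Capitals mark the CCAAT box (CCAAT, or ATTGG on the other strand) bound by NFY and the letters TCACCCCAC of a sterol regulatory element.
Hmgcs1: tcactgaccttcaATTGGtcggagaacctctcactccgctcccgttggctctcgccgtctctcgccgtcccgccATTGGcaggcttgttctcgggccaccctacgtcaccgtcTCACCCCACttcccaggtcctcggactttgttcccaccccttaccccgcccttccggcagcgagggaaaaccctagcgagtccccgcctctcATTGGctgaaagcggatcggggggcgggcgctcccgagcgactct
Msmo1: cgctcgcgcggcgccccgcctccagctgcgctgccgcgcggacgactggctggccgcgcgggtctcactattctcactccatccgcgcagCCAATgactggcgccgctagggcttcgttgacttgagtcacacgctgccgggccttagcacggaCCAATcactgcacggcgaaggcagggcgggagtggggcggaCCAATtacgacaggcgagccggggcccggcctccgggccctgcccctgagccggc
Mvd: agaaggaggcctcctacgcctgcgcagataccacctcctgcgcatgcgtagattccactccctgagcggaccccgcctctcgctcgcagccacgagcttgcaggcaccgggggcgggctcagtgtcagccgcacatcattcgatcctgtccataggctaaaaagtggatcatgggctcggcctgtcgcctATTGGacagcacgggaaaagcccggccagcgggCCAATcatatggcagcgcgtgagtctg
A CCAAT box was present, on either strand, in 15 of the 16 listed genes with a promoter on file (93.8%), and in 33.8% of all 32851 promoters of the same length. Dhcr7 held none. TCACCCCAC, searched on both strands and not overlapping a CCAAT box in the promoters shown, was in 1 of the 16 (6.25%, Hmgcs1) and in 0.496% of all. Of 21 glucocorticoid-responsive genes with a promoter on file, 11 held the box (52.4%). A match is a description of these letters, not a bound site.

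Hmgcs1, which makes HMG-CoA, read 11.38, 11.41, 11.30, 11.44 and 11.18 late and 11.66 to 11.96 (median 11.88) early after MAM, without overlap and with a difference of -0.50 ± 0.16 (limma adjusted p = 0.45). Its means were still 11.91 and 11.79 at 24 and 48 hr. Vehicle brains read 11.64 to 11.94 at 168 hr and 10.59 to 11.80 (median 11.73) at 6 hr, where MGMT.VEH.6.903 and MGMT.VEH.6.905 held the lowest values, 10.90 and 10.59. Mvd, a decarboxylase of the mevalonate pathway, read 6.92, 6.61, 6.65, 7.04 and 6.89 late and 7.08 to 7.43 (median 7.33) early, a difference of -0.47 ± 0.10 (adjusted p = 0.109). Its vehicle levels were 7.02 to 7.39 at 6 hr and 7.08 to 7.41 at 168 hr. Idi1, the isomerase of isopentenyl diphosphate, read 8.24, 8.31, 8.13, 8.57 and 7.92 late and 8.66 to 8.97 (median 8.81) early. That difference was -0.56 ± 0.23, also without overlap.

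Dhcr7, the last reductase of the pathway, read 8.13, 8.17, 8.26, 8.31 and 7.93 late and 8.57 to 8.85 (median 8.66) early after MAM, with a difference of -0.50 ± 0.18. After vehicle the Dhcr7 difference was 0.49. Msmo1, a methylsterol oxidase, overlapped, with 9.53, 9.66, 9.55, 9.87 and 9.56 late and 9.81 to 10.32 (median 10.20) early, and its difference was -0.50 ± 0.17. With the 3′/5′ index as a covariate the median of the list was -0.30 after MAM with 9 lower.

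**Figure D4:**
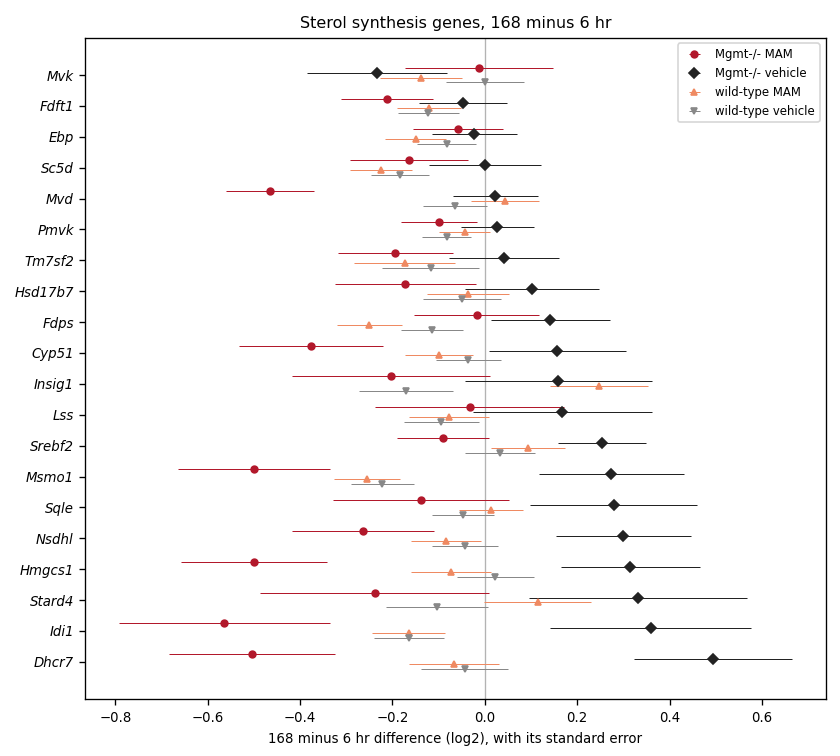
Difference between 168 and 6 hr (log2, with SE) for each measured gene of cholesterol synthesis in Mgmt-/- MAM, Mgmt-/- vehicle, wt MAM and wt vehicle brains. All 20 genes lie below 0 in Mgmt-/- MAM brains (median -0.20) and 17 above 0 in Mgmt-/- vehicle brains (median 0.16), where MGMT.VEH.6.903 and MGMT.VEH.6.905 stood apart. The medians were also below 0 in wt MAM (-0.081) and wt vehicle brains (-0.083).

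Of the astrocyte markers, 3 of 14 were lower late after MAM at an unadjusted p under 0.05 (share over all genes 2.57%) and none was called. Aqp4, the water channel of astrocyte end-feet, read 10.07, 10.11, 10.27, 10.45 and 9.89 late and 10.50 to 10.86 (median 10.73) early, without overlap, at a difference of -0.55 ± 0.11 (limma adjusted p = 0.0716). Vehicle brains read 10.12 to 10.71 at 6 hr and 10.59 to 10.81 at 168 hr, a difference of 0.19. Gfap, the intermediate filament of astrocytes, differed by -0.33 and Aldh1l1, a folate enzyme, by -0.21. The list of 14 had 10 differences below 0 and 4 above, among them Slc1a3 (0.14) and Cldn10 (0.12). At an unadjusted p under 0.05, 0 were higher. Its median was -0.12, beside -0.003 over all genes, at -0.15 in the first number set and -0.03 in the other. The mean of the list was 10.3 to 10.5 early and 10.1 to 10.3 late (exact p = 0.065, adjusted p = 0.433). Microglial, endothelial, oligodendrocyte and neuronal medians were -0.04, -0.01, -0.06 and -0.04 after MAM.

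Malat1, a long RNA kept in the nucleus, read 9.55, 9.79, 10.35, 9.58 and 9.56 late and 9.99 to 11.16 (median 10.98) early after MAM, a difference of -1.04 ± 0.25 (limma adjusted p = 0.208) with 1 late value inside the early range. The list of 11 nuclear long RNAs had a median of -0.10 after MAM and 4 lower at an unadjusted p under 0.05 (share over all genes 2.57%), Malat1, Meg3 (-0.30), Mirg (-0.23) and Miat (-0.37), beside a median of -0.08 after vehicle. Without MGMT.MAM.168.967 the MAM median was -0.17 and without MGMT.MAM.168.345 it was -0.06, and with the 3′/5′ index as a covariate it was -0.25 after MAM and 0.05 after vehicle. Malat1 was variable in vehicle brains, with lowest values of 10.05 at 6 hr and 9.74 at 168 hr and medians of 11.18 and 10.86.

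**Figure D5:**
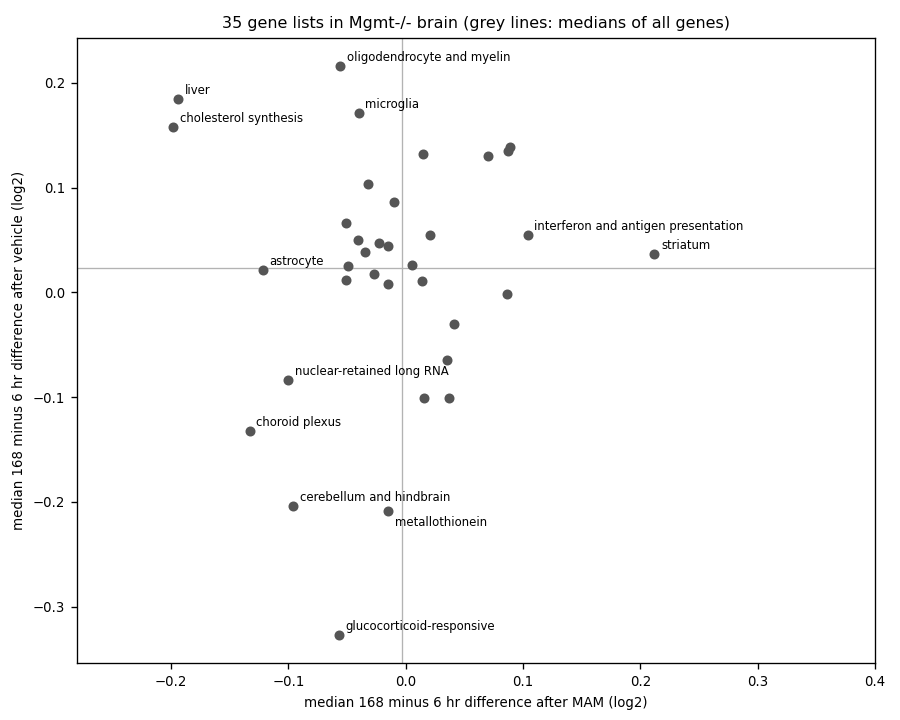
Median difference between 168 and 6 hr (log2) of each of 35 gene lists, after MAM (x) and after vehicle (y), with grey lines at the medians of all genes (-0.003 and 0.023). Cholesterol synthesis lies at -0.20 and 0.16, and the glucocorticoid-responsive genes at -0.06 and -0.33.

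Set against the wt brains, 8 of the 13 genes changed differently between 6 and 168 hr after MAM. The 13 were picked by the same Mgmt-/- MAM change that this comparison contains, so their share of calls is no separate evidence. In a fit of 46 arrays in 8 groups, added after seeing the data, the test of the Mgmt-/- change minus the wt change called 361 genes, or 1.98% of 18194, of which 246 were higher. The values were 0.93 for Fbln5 (adjusted p = 0.00361), 0.94 for Spink8 (0.00263), 0.69 for Slc5a5 (0.00361), 0.69 for Amn (0.00263), 0.47 for Cyp2d22 (0.0242), 0.56 for Rab3b (0.00452) and 0.49 for Sin3b (0.00737). Hbb-b2 was -0.65 (0.00176). Of the glucocorticoid genes 3 of 26 were called, Sgk1 at 1.44 (0.0175), Sult1a1 at 2.03 (0.00801) and Ddit4, an inhibitor of mTOR signalling, at 1.24 (0.027), beside 0.967% of all genes by their brightest probe set. Mvd was -0.51 (0.0241) and Aqp4 was -0.60 (0.0286). Pglyrp1 and Fmo2, which fell in both genotypes, differed between them by -0.16 and -0.17. With the 3′/5′ index as a covariate the count was 270, of which 63 were higher and 207 lower. Most of the 361 were no longer called with that covariate. Within the number sets alone the count was 16 and 1037. For the change within each genotype, 405 genes were called in wt MAM brains, 268 of them lower. In Mgmt-/- MAM brains 43 were called in the 8-group fit. The comparison subtracts no vehicle change, so a genotype difference in the change of time apart from MAM was not tested.

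Etnppl, an astrocyte enzyme that degrades phosphoethanolamine and was chosen after its values were seen, had a difference of 1.40 between the genotypes (limma adjusted p = 0.00157). It read 10.55, 10.38, 10.80, 10.26 and 10.51 late and 9.56 to 9.94 (median 9.82) early after MAM in the Mgmt-/- brains, all late values being higher, a difference of 0.68 (adjusted p = 0.26). In wt MAM brains the difference was -0.71.

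Across the 18194 named genes the difference after MAM had the same sign in both number sets for 57.8% (r = 0.275), where after vehicle it was 26.1% (r = -0.672). These correlations are across genes, which are not independent replicates, and the sets share no arrays. The vehicle sets therefore moved oppositely for most genes, with MGMT.VEH.6.903 and MGMT.VEH.6.905 in the second set. Between the MAM and the vehicle differences the sign was the same for 50% (r = -0.012).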

How the data were processed

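Total RNA of the right brain side of single mice was labelled with a one-cycle protocol and hybridised to Affymetrix whole-genome mouse expression arrays. The values used are the log2 signals deposited by the authors, made by robust multi-array average (RMA) with default arguments, which corrects background, normalises by quantiles over arrays and summarises probes by median polish; for RMA and the affy package the version was not given in the sources used here. Quantile normalisation over brain arrays together with the liver-like array could move the values of all arrays, and with 5 or 6 arrays in each group precision is limited by their number. No value was missing, and 0 columns belonged to no sample.

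From these values, limma 3.58.1 in R 4.3.3 fitted the 23 arrays of the 4 Mgmt-/- groups at 6 and 168 hr with group means and number set as a block, without MGMT.MAM.168.343. p-values were adjusted by Benjamini-Hochberg over all 45101 probe sets, with no filter on dim probe sets, and a probe set was called at adjusted p under 0.05 and fold above 1.3, the thresholds of the study, which stated no test across times. The study's models by time point excluded probe sets whose effect differed between laboratories; that filter, with number sets in their place at p under 0.15, was an alternative. Gene symbols came from the platform annotation, which gave 34958 probe sets 1 symbol, 932 several and 9211 none, and 34754 symbols matched RefSeq; only probe sets with 1 symbol were named. Genes of a list were read from their brightest probe set, and lists were described by counts and medians only. The text names the called genes of each comparison that moved the same way in both number sets (the 12 largest each way after MAM), the 5 with the smallest p where fewer than 5 were called, the called members of each list or else up to 4 with the largest MAM difference, and Mgmt; members and lists were chosen with earlier results of these data known. Index values were tested by exact permutation of arrays within number sets, two-sided, over 200 arrangements after MAM (smallest possible p = 0.005) and 400 after vehicle (0.0025).

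The shared axis is the first principal component of the deviations of arrays from their group and number-set means, and an array's score is its projection on that axis after centring on the mean of all 23 arrays, so that differences between groups are kept. The fit against wt brains, the shared-axis covariate, the means by group and number set, the fit without MGMT.VEH.6.903 and MGMT.VEH.6.905 and the lists under these settings were chosen after seeing the data. Methods were tested on simulated data. No pair of arrays held identical values (r of 0.9706 to 0.9973). Plots were made in Python 3.11.15 by matplotlib 3.10.9.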

Additional observations from a re-analysis of the deposited data

Results flagged for a closer look

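A single animal lay far from the other 5 of its group in 6 of the 112 groups examined, where about 5.6 would do so by chance (1 in 20). For Fbln5, MGMT.VEH.168.321 was the highest late vehicle brain at 6.89. For Cyp2d22, MGMT.VEH.6.901 was the lowest early vehicle brain at 7.19, and for Sin3b, MGMT.VEH.6.903 was the highest at 8.97. For Eif2b3, MGMT.MAM.6.953 was the highest early MAM brain at 7.94, and for Pglyrp1, MGMT.MAM.6.949 was the lowest at 6.62. The 3′/5′ index of MGMT.MAM.6.329 was 0.75.

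The change from 6 to 168 hr after MAM differed between Mgmt-/- and wt brains, by the test of the difference itself, for several of the named genes. The Mgmt-/- change minus the wt change was 0.931 for Fbln5, 0.941 for Spink8, 0.687 for Slc5a5, 0.692 for Amn, 0.469 for Cyp2d22, 0.558 for Rab3b, 0.485 for Sin3b. It was 1.444 for Sgk1, which fell in wt brains (-1.31) and differed by 0.13 in Mgmt-/- brains. It was -0.653 for Hbb-b2 and -0.603 for Aqp4. No vehicle change was subtracted in this test. All of these genes except Sgk1 and Aqp4 were picked by the same Mgmt-/- MAM change that the test contains. Their calls are therefore no separate evidence. Sgk1 and Aqp4 came from lists chosen with earlier results of these data known. Most of the genes called by this test were no longer called with the 3′/5′ index as a covariate, and the count differed widely between the number sets.

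Outside the comparison, the array MGMT.MAM.168.343 held a mean of 13.39 over 15 liver genes, and a mean of 4.63 over the 16 neuronal genes.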

How the results depend on the processing

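The 13 genes that differed after MAM, the 0 after vehicle and the 0 for the difference between them depended on the processing. After MAM the count was 25 (11 of the 13 among them) with probe sets whose number sets did not differ, 4 (1) in number set 1 alone, 0 in number set 2 alone, 0 with MGMT.MAM.168.343 kept, 8 (2) with the MAM arrays alone, 21 (8) with all 8 Mgmt-/- groups in one fit, 4 (1) with the 3′/5′ index as a covariate, 5 (4) after cyclic loess and 88 (13) with array weights. Among settings chosen after seeing the data it was 79 (13) with the shared-axis score, 86 (12) with that score and the index, 30 (13) with means by group and number set, and 54 (13) without MGMT.VEH.6.903 and MGMT.VEH.6.905. After vehicle the count was 5442 in number set 2 alone, 3 with the vehicle arrays alone, 1 with array weights, 11 with the shared-axis score and 4 with means by group and number set. For the difference between MAM and vehicle it was 4 with all 8 groups, 5 with array weights, 40 with the shared-axis score, 1 with that score and the index, and 25 with means by group and number set.

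Leaving out each array gave 0 to 20 genes after MAM. It was 0 in 14 of 23 fits, those without any early MAM brain but MGMT.MAM.6.949 (1), any late vehicle brain but MGMT.VEH.168.319 (1), MGMT.VEH.6.301, MGMT.MAM.168.345, MGMT.MAM.168.347 or MGMT.MAM.168.969. It was 1 without MGMT.VEH.6.303 or MGMT.VEH.6.305, 3 without MGMT.VEH.6.901 or MGMT.MAM.168.971, 4 without MGMT.MAM.168.967, 13 without MGMT.VEH.6.903 and 20 without MGMT.VEH.6.905. The counts after vehicle were 0 to 1 (1 without MGMT.MAM.6.329), and for the difference 0 to 2 (2 without MGMT.VEH.6.901).

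For the difference between the genotypes, 361 genes became 134 with no number-set term, 1127 with the shared-axis score, 16 and 1037 in the number sets alone, 80 with MGMT.MAM.168.343 kept, 1787 with array weights and 176 by the brightest probe set, and 159 (without MGMT.MAM.168.345) to 565 (without WT.MAM.168.145) as each array was left out. The direction of each of the 13 genes that differed after MAM held under every setting tried here except for Fmo2, which was 0.256 (adjusted p = 0.925) with MGMT.MAM.168.343 kept. The causes were not tested. No paired analysis was possible because the groups share no animal numbers.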

Other observations

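Marker genes of the striatum, the main input nucleus of the basal ganglia, were higher on balance late after MAM. Of 12 measured members 11 had a positive difference and 4 were higher at an unadjusted p under 0.05 (share over all genes 4.42%), with a median of 0.21 beside -0.003 over all genes, and 0.04 after vehicle. None was called. The median was 0.13 without MGMT.MAM.6.325, and the count ran from 1 to 5 as each array was left out. In wt MAM brains 4 members were higher too, with a median of 0.12. In wt vehicle brains 4 were higher as well, with a median of 0.055, where 1636 of the 18194 genes were higher. Over the means of all probe sets of each gene the Mgmt-/- MAM median was 0.10. In the first number set alone it was 0.127, with 0 higher. Pdyn, the precursor of dynorphin, read 6.21, 6.13, 6.25, 6.16 and 5.99 late and 5.64 to 6.24 (median 5.80) early, a difference of 0.31 ± 0.10. Ppp1r1b, the phosphatase inhibitor DARPP-32 of medium spiny neurons, differed by 0.28 and Tac1, the precursor of substance P, by 0.28, and both overlapped between the groups.

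Genes of interferon and antigen presentation had a median of 0.10 after MAM, with 3 of 23 higher (share over all genes 4.42%), Gbp2 (0.45), a guanylate-binding protein, and the immunoproteasome subunits Psmb8 (0.30) and Psmb9 (0.26). In wt MAM brains the median was 0.20 with 13 higher, where 1147 of the 18194 genes were higher. In wt vehicle brains it was 0.12 with 7 higher, where 1636 of the 18194 genes were higher. The targets of p53, the transcription factor of the DNA damage response, had a median of -0.03, with 1 of 26 higher (Plk2, 0.28) and 1 lower (Zmat3, -0.15). Of 22 genes of alkylation and mismatch repair 1 was higher (Pcna, the sliding clamp of DNA replication and repair, 0.21), and the median was 0.04. Both counts are near the shares over all genes of 4.42% higher and 2.57% lower. Of 21 core clock genes, 3 were higher, Npas2 (0.36), Bhlhe40 (0.24) and Csnk1e (0.13), with a median of 0.02, and of 36 genes of oxidative phosphorylation 5 were higher, with a median of 0.04, beside the same 4.42%. All these counts are at an unadjusted p under 0.05 and none of these genes was called.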
